A study of Saccharomyces cerevisiae with 4 samples.

Results

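The 35 genes described here are nuclear genes of budding yeast, Saccharomyces cerevisiae, that encode subunits of respiratory complex III, respiratory complex IV and ATP synthase, together with the 2 cytochrome c genes. They were taken by gene symbol from a list that was chosen with earlier results of these data known. The list has 9 genes for complex III, 9 for complex IV, 2 for cytochrome c and 15 for ATP synthase with its inhibitor. The array annotation gave a probe set to all 35, 37 probe sets in all, out of 5656 genes that the annotation names. All 35 passed the filter on dim signals, so no member was lost.

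The groups compared were Snf1-I132G, with 2 arrays, and Snf1, with 2 arrays. Snf1, the budding yeast member of the AMP-activated protein kinase family, is needed to use carbon sources other than glucose, and the I132G form is open to inhibition by the pyrazolopyrimidine 2NM-PP1. Cells of both groups grew in synthetic medium without uracil and with 2% glucose, and spent 120 min in 2% raffinose with 0.05% glucose. Both groups then received 25 µM 2NM-PP1 for 40 min, so the I132G allele and the inhibition of the kinase cannot be told apart. RNA was combined from 3 transformants of each strain and run in duplicate on Affymetrix Yeast Genome S98 arrays. Nothing in the labels places the duplicates in separate cultures, so the p-values speak for the variation among these 4 hybridizations, possibly technical, and not for that among cultures.

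As background, complex III takes electrons from ubiquinol and hands them to cytochrome c, and complex IV passes them from cytochrome c to oxygen. Both move protons out of the mitochondrial matrix, and ATP synthase makes ATP from their return. The catalytic core of complex IV, cytochrome b of complex III and part of the Fo motor are encoded in the mitochondrial genome, while the genes described here are nuclear and their products are imported. In yeast most of these nuclear genes are repressed by glucose, and the Hap2/3/4/5 complex, whose Hap4 subunit supplies the activation domain, is the best known activator of such genes.

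The values are MAS5 signals in array units, which the authors had scaled to a trimmed mean of 500 to 501 on each array. Such scaling does not tell less of a transcript per cell from a change of total RNA. SNF1 itself had signals of 797 and 889 in Snf1-I132G and 981 and 1015 in Snf1. The ratio of the 3' to the 5' ACT1 control, a sign of RNA integrity, was 1.74 and 1.51 in Snf1-I132G and 1.62 and 1.54 in Snf1. The summed signal of 10 ribosomal RNA control probe sets was 2623 and 3173 in Snf1-I132G and 813 and 1927 in Snf1, and the part of this in the results below was not tested. The 9 hybridization controls averaged 10.37 and 10.34 log2 units in Snf1-I132G and 10.06 and 10.18 in Snf1.

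Transcripts of these respiratory genes were mostly lower in Snf1-I132G. Of the 35 genes 32 fell and none rose (limma's moderated test, Benjamini-Hochberg adjusted p at most 0.040), where 19.9% of the 5202 tested genes fell and 9.03% rose. The median log2 difference, Snf1-I132G minus Snf1 on the scale log2(signal + 16), was -1.15 over the 35, a signal 2.22 times lower, and -0.16 over all tested genes. The genes that did not pass were COX5B, CYC1 and ATP5. For 34 of the 35, all but COX5B, both Snf1-I132G arrays lay below both Snf1 arrays, as they did for 45.4% of all tested genes. With 1 array left out, the count of the 35 that fell was 28 without replicate 1 of Snf1-I132G and 29 without its replicate 2, where 17.5% and 13.9% of all tested genes fell. It was 21 without replicate 1 of Snf1 and 19 with its replicate 2 left out, where 8.4% and 7.55% of all tested genes fell.

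**Figure D1:**
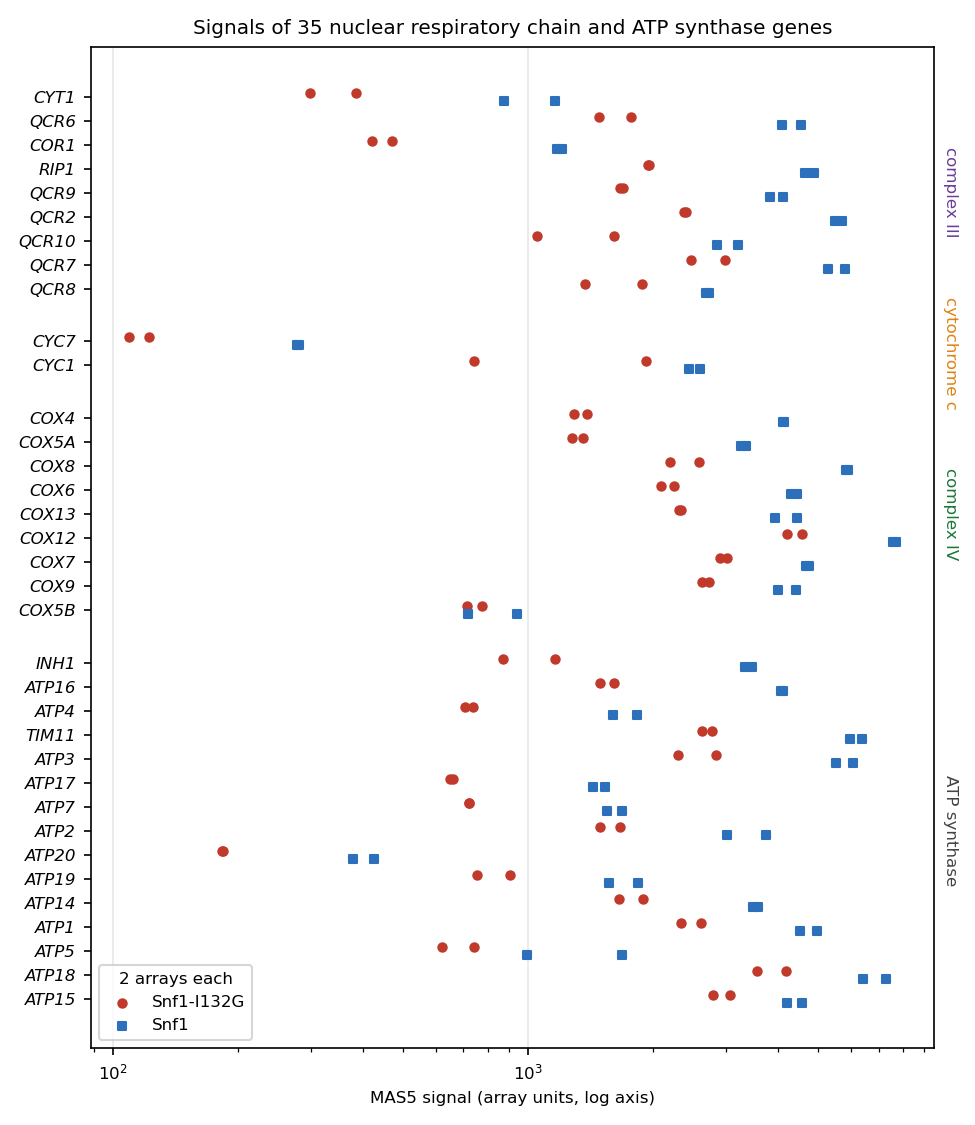
MAS5 signal in array units, on a log axis, of each of the 35 genes on the 2 Snf1-I132G arrays (circles) and the 2 Snf1 arrays (squares), grouped by complex. The circles lie left of the squares for 34 genes, and for COX5B the groups overlap.

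All 9 genes of complex III fell, at a median log2 difference of -1.23, or a signal 2.35 times lower. The subunits that carry or receive electrons were among them. CYT1, for cytochrome c1, which passes the electron to cytochrome c, had signals of 299 and 386 in Snf1-I132G and 875 and 1161 in Snf1. This was the largest difference of the complex, at -1.52 ± 0.22 log2 units (SE; limma, adjusted p = 0.0079). RIP1, for the Rieske iron-sulfur protein, had 1953 and 1963 in Snf1-I132G and 4897 and 4663 in Snf1, a log2 difference of -1.28 ± 0.14. The arrays of each group lay close together for RIP1 and far from those of the other group.

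The core proteins, which hold the complex together on the matrix side, moved much like the redox subunits. COR1 was at 421 and 471 in Snf1-I132G and 1209 and 1179 in Snf1, a log2 difference of -1.39 ± 0.15, and QCR2 was at 2408 and 2375 in Snf1-I132G and 5715 and 5510 in Snf1, a log2 difference of -1.22 ± 0.14. Each of CYT1, RIP1, COR1 and QCR2 was more than 2-fold lower in both array pairs. The 5 small subunits QCR6 to QCR10 covered a wider range, from -0.75 to -1.40. QCR6, the acidic hinge protein that aids docking of cytochrome c, had 1771 and 1485 in Snf1-I132G and 4543 and 4101 in Snf1. QCR8, a small subunit next to cytochrome b, had the smallest difference of the complex, with 1371 and 1888 in Snf1-I132G and 2693 and 2736 in Snf1. That difference of -0.75 ± 0.20 log2 units was close to the threshold (limma, adjusted p = 0.040) and passed neither without replicate 1 of Snf1-I132G nor without either Snf1 array. Without replicate 2 of Snf1, QCR7 and QCR10 did not pass either, which left 6 of the 9.

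The 2 cytochrome c genes encode the mobile carrier between complexes III and IV. CYC7, for iso-2-cytochrome c, the form favoured at low oxygen, had signals of 109 and 122 in Snf1-I132G and 281 and 279 in Snf1. Its log2 difference was -1.17 ± 0.17 (limma, adjusted p = 0.0081), and without replicate 2 of Snf1 the adjusted p was 0.051. CYC1, for iso-1-cytochrome c, the main aerobic form, had 743 and 1922 in Snf1-I132G and 2453 and 2604 in Snf1. Both Snf1-I132G arrays were lower, but they differed from each other by 2.59 times, more than all but 0.83% of tested genes differ in that direction. CYC1 was at -1.07 ± 0.43 log2 units, which missed the threshold (limma, adjusted p = 0.121), although it passed with the array pair as a block (adjusted p = 0.0067). It was -0.39 without replicate 1 of Snf1-I132G (adjusted p = 0.17) and -1.75 without replicate 2 of Snf1-I132G (adjusted p = 0.0090). For the other 34 genes the ratio of the Snf1-I132G arrays, replicate 2 over replicate 1, lay between 0.84 and 1.54.

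In complex IV 8 of 9 genes fell, at a median log2 difference of -0.85 over the 9, or 1.80 times lower. All of these encode subunits that surround the mitochondrially made core. COX4, which binds zinc on the matrix side, led with 1293 and 1389 in Snf1-I132G and 4137 and 4119 in Snf1, which made its log2 difference -1.61 ± 0.14 (limma, adjusted p = 0.0029, the smallest of the 35 genes). COX5A, the aerobic form of subunit V, had 1360 and 1279 in Snf1-I132G and 3348 and 3261 in Snf1. The small membrane subunit gene COX8 had 2201 and 2589 in Snf1-I132G and 5845 and 5898 in Snf1. COX5A and COX8 were at -1.31 ± 0.14 and -1.29 ± 0.16 log2 units, and COX6, another matrix-side subunit, at -1.01 ± 0.15.

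The other 4 fell by less. COX13 was at -0.85 ± 0.15, COX12, on the intermembrane space side, at -0.80 ± 0.15, COX7 at -0.67 ± 0.14 and COX9 at -0.65 ± 0.15 log2 units, so signals were 1.57 to 1.80 times lower. COX7 had 2912 and 3025 in Snf1-I132G and 4689 and 4748 in Snf1, and the groups of all 4 genes were clear of each other. COX7 and COX9 did not pass when any 1 of the 4 arrays was left out. Without replicate 1 of Snf1 only COX4, COX5A and COX8 passed, which is 3 genes, and with its replicate 2 left out COX6 made 4. With each array centred on its median, 5 of the 9 passed, COX7, COX9 and COX12 being lost.

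Of the 15 ATP synthase genes 14 fell, at a median log2 difference of -1.08, or 2.12 times lower. The largest difference of all 35 genes was that of INH1, for the small protein that blocks ATP hydrolysis by the enzyme when the membrane is not energised. INH1 had 873 and 1161 in Snf1-I132G and 3343 and 3465 in Snf1, so that its log2 difference reached -1.74 ± 0.19 (limma, adjusted p = 0.0041). Its difference ranked at place 165 from the lowest among the 5202 tested genes.

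The 5 genes of the F1 head and central stalk all fell, at a median of -1.08 log2 units. ATP1 and ATP2 encode the alpha and beta subunits of the head, of which beta carries the catalytic sites. ATP1 had 2334 and 2617 in Snf1-I132G and 4986 and 4534 in Snf1, and ATP2 had 1491 and 1672 in Snf1-I132G and 3749 and 3017 in Snf1. Their log2 differences were -0.94 ± 0.16 and -1.08 ± 0.18. The central stalk genes lay on both sides of these. ATP3, for the gamma shaft, was at -1.17 ± 0.17 and ATP16, for delta, at -1.39 ± 0.14 log2 units, while ATP15, for epsilon, had the smallest difference among the genes that passed. ATP15 had 2787 and 3073 in Snf1-I132G and 4584 and 4223 in Snf1, and differed by -0.59 ± 0.15 log2 units (limma, adjusted p = 0.040), and it failed when any 1 array was left out.

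The peripheral stalk holds the head still against the rotor. ATP4, for subunit b, and ATP7, for subunit d, were at -1.23 ± 0.15 and -1.15 ± 0.15 log2 units. ATP7 had 720 and 720 in Snf1-I132G and 1685 and 1555 in Snf1. ATP14, for subunit h, was at -0.99 ± 0.15. ATP5, for the OSCP subunit that joins the stalk to the head, did not pass, with 623 and 741 in Snf1-I132G and 995 and 1685 in Snf1. The groups of ATP5 did not overlap, but its Snf1 arrays differed by 1.69 times, and the log2 difference was -0.92 ± 0.28 (limma, adjusted p = 0.059, or 0.0011 with the array pair as a block). It was -1.29 without replicate 1 of Snf1 (adjusted p = 0.027) and -0.54 without replicate 2 of Snf1 (adjusted p = 0.24).

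The 5 membrane subunit genes of Fo and dimerization fell within a narrow range, -0.82 to -1.18 log2 units. TIM11 and ATP20, for subunits e and g, which bring ATP synthase dimers together, were at -1.18 ± 0.15 and -1.07 ± 0.16. TIM11 had 2637 and 2787 in Snf1-I132G and 6400 and 5970 in Snf1. ATP17, for subunit f, was at -1.16 ± 0.15, ATP19, for subunit k, at -1.02 ± 0.17, and ATP18, for subunit i/j, at -0.82 ± 0.17. Across ATP synthase 9 of 15 genes fell with either Snf1 array left out.

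**Figure D2:**
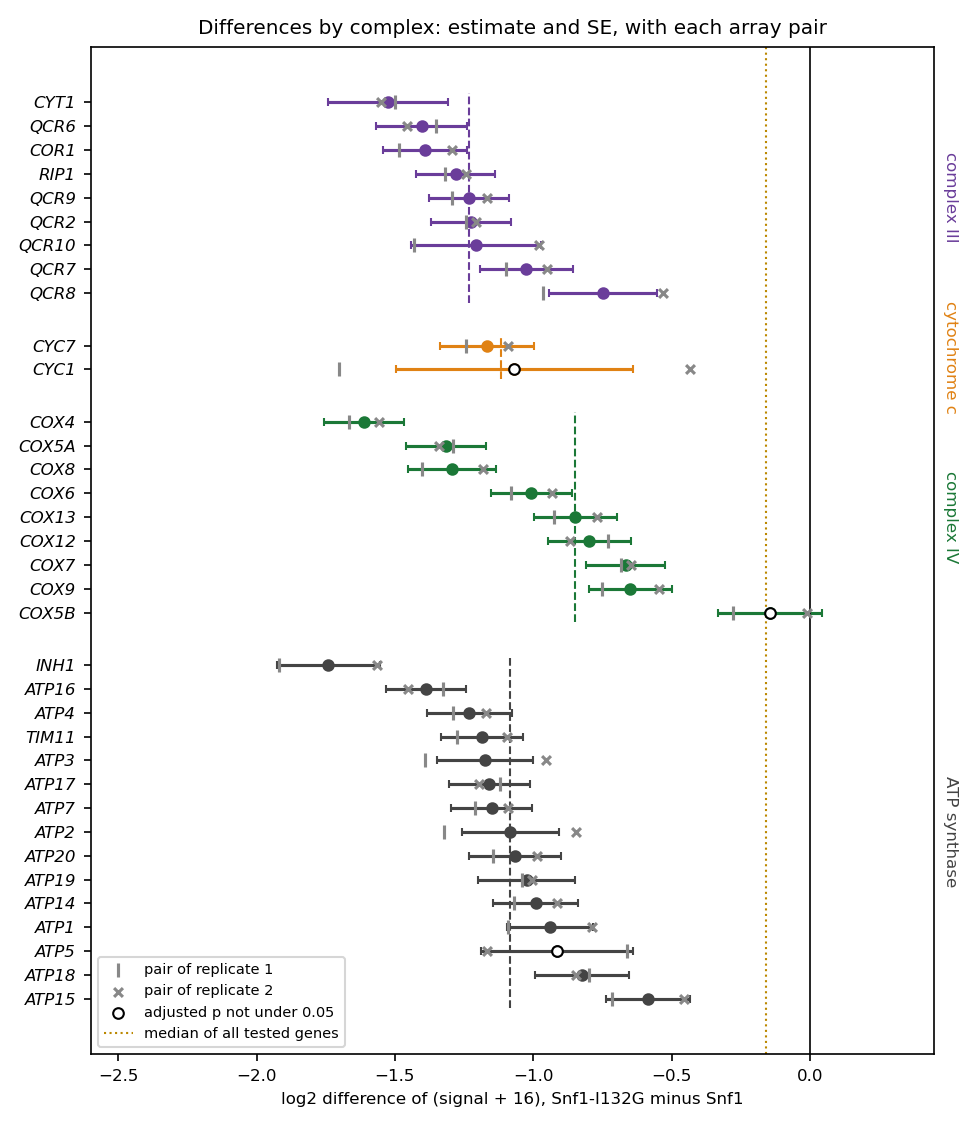
Log2 difference of (signal + 16), Snf1-I132G minus Snf1, with its SE (filled circles and bars), for each gene, beside the difference within the array pair of replicate 1 (bars) and of replicate 2 (crosses). Dashed lines are the medians of each complex, at -1.23, -1.12, -0.85 and -1.08 from top to bottom, the dotted line is the median of all tested genes, and open circles mark COX5B, CYC1 and ATP5, which did not pass.

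The differences of the 35 genes were close to each other. Their SD between genes was 0.31 log2 units, against 0.79 among all tested genes, and 21 of the 35 lay between -1 and -1.5. All tested genes were not matched to the 35 for signal. The SD was 0.44 within complex IV. Among the other lists it ran from 0.22 for the mitochondrially encoded subunits to 1.12 for the transcription regulators, and it was 0.39 for complex IV assembly. The 0.22 includes dim probe sets of COB, COX3 and ATP6. The 1.12 takes HAP1 at 0.61, from a probe set that related transcripts can match, while its gene-specific probe set was at -0.91. At least 2-fold lower were 24 of the 35, where 10.5% of all tested genes were, and 17 were so in both array pairs, where 8.09% of all tested genes were. By complex these 24 were 8 of 9 in complex III, 4 of 9 in complex IV, both cytochrome c genes and 10 of 15 in ATP synthase. The ranges of the complexes overlap, from -0.75 to -1.52 in complex III, -0.14 to -1.61 in complex IV and -0.59 to -1.74 in ATP synthase, and the differences between the complexes were not tested. Across the 35 genes, which share the same 4 arrays, the difference and the Snf1 signal had a Pearson r of -0.01 and a Spearman rho of 0.10 (n = 35, as a description). Without COX5B and CYC7 the Pearson r was 0.18. The Snf1 signal is itself part of the difference, so these values cannot show that the 2 are unrelated.

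The median of the 35 was -1.24 log2 units in the pair of replicate 1 and -1.01 in the pair of replicate 2. For 27 genes the pairs were within 0.3 log2 units of each other, and the widest gap was that of CYC1, at 1.27. The median over all tested probe sets was -0.10 as deposited, 0.02 after quantile normalization, 0.09 after centring on the median and -0.33 after centring on hybridization controls. The median of the 35 was -1.15, -1.11, -0.97 and -1.38 log2 units in the same order. Its difference from that of all probe sets was -1.05 as deposited and -1.13 after quantile normalization, and centring, which shifts all probe sets of an array alike, cannot change it.

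**Figure D3:**
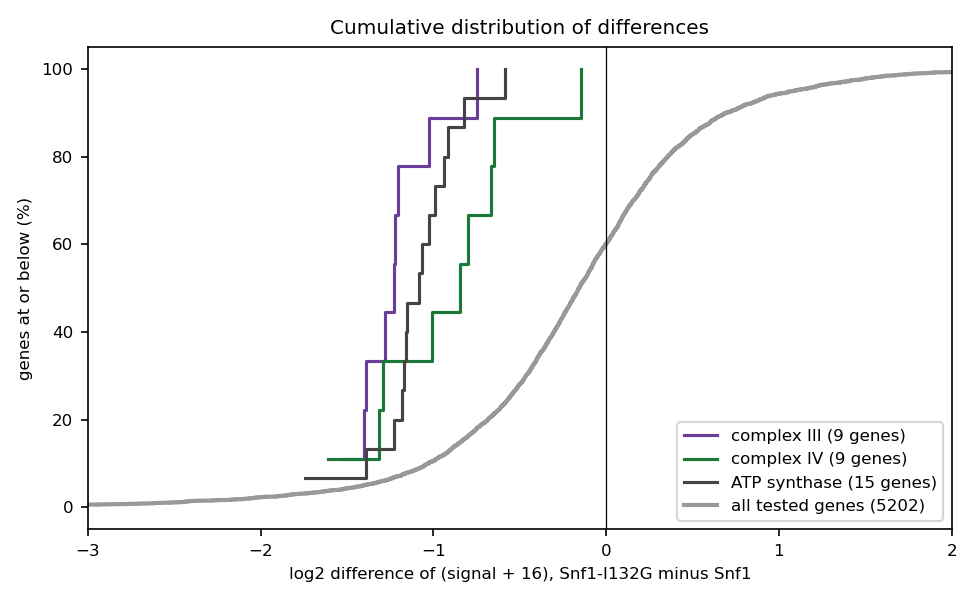
Percent of genes at or below each log2 difference of (signal + 16), Snf1-I132G minus Snf1, for complex III, complex IV, ATP synthase and all 5202 tested genes. The 3 complexes lie left of all tested genes, with complex IV reaching the furthest right, at COX5B.

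Subunit V and cytochrome c each come in an aerobic and a hypoxic form. COX5B, the form of subunit V that yeast uses at low oxygen, had 776 and 713 in Snf1-I132G and 943 and 718 in Snf1. These arrays overlap, and at -0.14 ± 0.19 log2 units COX5B missed the threshold (limma, adjusted p = 0.60). Its sign was the opposite after quantile normalization (0.0019), after median centring (0.042) and without replicate 1 of Snf1 (0.049). The log2 ratio of COX5A to COX5B was 0.80 and 0.83 in Snf1-I132G and 1.81 and 2.16 in Snf1, so it was lower on both Snf1-I132G arrays, by 1.17 ± 0.17 log2 units (SE). With 2 arrays against 2 the exact two-sided permutation test gave p = 0.333, the smallest it can give.

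For cytochrome c the ratio of the forms did not separate the groups. The log2 ratio of CYC1 to CYC7 was 2.60 and 3.81 in Snf1-I132G and 3.06 and 3.15 in Snf1, a difference of 0.10 ± 0.61 log2 units (SE). The 2 Snf1-I132G arrays lay on either side of the Snf1 arrays (exact two-sided permutation test, p = 1), and the difference was -0.51 without replicate 2 of Snf1-I132G and 0.71 without replicate 1.

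**Figure D4:**
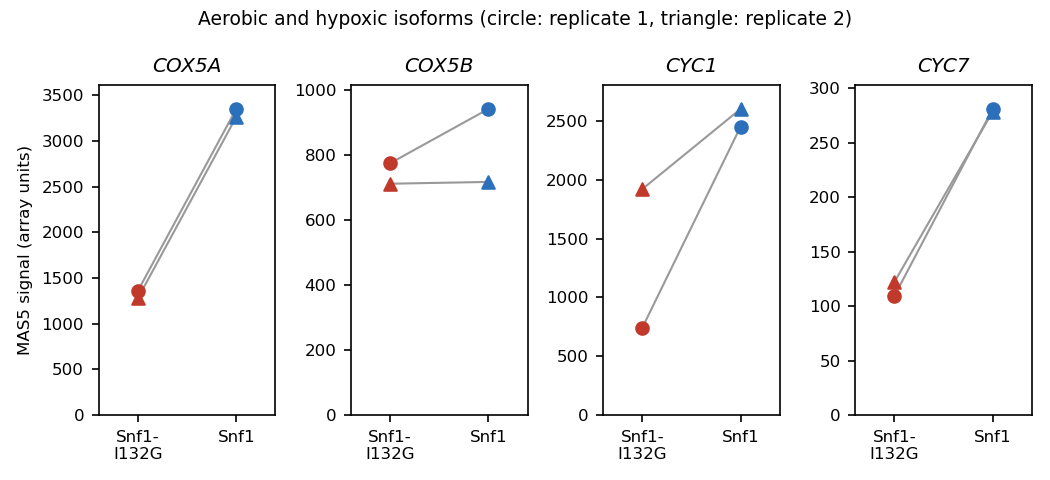
MAS5 signal in array units of COX5A, COX5B, CYC1 and CYC7 in Snf1-I132G and Snf1, with lines joining arrays of the same replicate number (circle replicate 1, triangle replicate 2) and each axis starting at 0. COX5A and CYC7 are lower on both Snf1-I132G arrays, COX5B overlaps, and CYC1 has 743 and 1922 in Snf1-I132G against 2453 and 2604 in Snf1.

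For 3 genes the array offers a second reading. RIP1 is also an array control gene, and that probe set, which was outside the tests, had 658 and 683 in Snf1-I132G and 1777 and 1857 in Snf1, a log2 difference of -1.42 beside -1.28 for the tested one. ATP14 has a second probe set with 1550 and 1901 in Snf1-I132G and 3451 and 3568 in Snf1, a log2 difference of -1.02 ± 0.17 beside -0.99. The probe sets of QCR8 disagree. The dimmer one had 66.9 and 66.2 in Snf1-I132G and 70.8 and 63.6 in Snf1, with a log2 difference of -0.01 ± 0.18 (limma, adjusted p = 0.97), so the fall of QCR8 is that of its brighter probe set.

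No tested probe set of the mitochondrially encoded partners of these subunits was called lower, and only COX1 and OLI1 had a bright probe set. How well the labelling captured mitochondrial transcripts was not tested. Of the 7 genes COB, COX1, COX2, COX3, ATP6, ATP8 and OLI1, 5 had a tested probe set and none passed (limma, none of 5 at an unadjusted p under 0.05 either). COX1, for the catalytic subunit of complex IV, had 4688 and 5819 in Snf1-I132G and 5184 and 5531 in Snf1, a log2 difference of -0.04 ± 0.17. OLI1, for the subunit that forms the Fo ring, had 10047 and 8492 in Snf1-I132G and 9340 and 7665 in Snf1, a log2 difference of 0.13 ± 0.19. The tested probe sets of COB, COX3 and ATP6 were dim, with signals of 22.3 to 98.7, and COX2 and ATP8 did not pass the filter on dim signals. Further probe sets of COX1 and OLI1 were dim as well, at 25.8 to 194 for COX1 and 0.75 to 4.85 for OLI1.

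Genes that feed electrons into the chain were lower too, with a larger median difference that was not tested against that of the subunits. In the list of NADH, succinate, glycerol phosphate and lactate dehydrogenase genes 9 of 10 fell, where 19.9% of all tested genes did. The median of the list was -1.84 log2 units, beside -0.16 over all tested genes. SDH1, for the flavoprotein of succinate dehydrogenase, had 280 and 218 in Snf1-I132G and 2034 and 1865 in Snf1, and NDE1, for the external NADH dehydrogenase, had 1211 and 1056 in Snf1-I132G and 6465 and 5764 in Snf1. The exception was DLD1, for a lactate dehydrogenase, with 1602 and 4025 in Snf1-I132G and 2437 and 3626 in Snf1, a log2 difference of -0.23 ± 0.45. Like CYC1, DLD1 differed widely between the Snf1-I132G arrays, by 2.51 times.

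Among transcription regulators of respiratory genes HAP4 fell, with 208 and 318 in Snf1-I132G and 1753 and 1799 in Snf1, and so differed by -2.71 ± 0.22 log2 units (limma, adjusted p = 0.0026). HAP2, HAP3 and HAP5, for the DNA-binding subunits of the same complex, were at -0.39 ± 0.19, -0.34 ± 0.18 and -0.19 ± 0.17 and did not pass. HAP1, for the heme-responsive activator of CYC1 and CYC7, had probe sets that disagree. Its brightest one, which related transcripts can match, was at 0.61 ± 0.44 (limma, adjusted p = 0.34, or 0.036 with the array pair as a block). Another of that kind was at 0.13 ± 0.24 (limma, adjusted p = 0.70, or 0.42 with the block). The gene-specific one, at 242 and 268 in Snf1-I132G and 486 and 501 in Snf1, was at -0.91 ± 0.16 (limma, adjusted p = 0.013). ROX1, for the repressor of hypoxic genes, was at -0.79 ± 0.27 (limma, adjusted p = 0.082, or 0.0041 with the block).

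The assembly factors of each complex were counted separately, and the difference between these lists was not tested. For complex IV 10 of 16 assembly genes fell, at a median of -0.76 log2 units. COX20 and COX16, at -1.45 ± 0.15 and -1.04 ± 0.16, had the smallest p of these, though not the 2 largest differences. The count of the 16 that fell was 4 after quantile normalization, where 15.1% of all tested genes fell, and 4 after median centring, where 13.5% did. Centring on hybridization controls gave 13, beside 34.1% of all tested genes. It was 13 with the array pair as a block, where 31.8% of all tested genes fell. The count was smaller with any 1 array left out, which leaves 1 array in a group. Without either of the Snf1 arrays, the share of these 16 genes that fell was near that of all tested genes. For complex III 1 of 5 fell, a share near the 19.9% of all tested genes. It was CBP4 at -2.20 ± 0.22, while BCS1, CBP3, CBP6 and MZM1 lay between -0.51 and 0.22. The count was 2 of 5 with the block and after centring on hybridization controls. For ATP synthase 1 of 7 fell, or 14.3%, below the share among all tested genes. It was ATP12, a chaperone of the F1 head, at -1.43 ± 0.17, and ATP10, ATP11, ATP22, ATP23, ATP25 and FMC1 lay between -0.51 and -0.20. With signals of 44.0 and 47.1 in Snf1-I132G, ATP12 was dim and failed to reach the stricter filter, so it was not tested there. The count was 5 of 7 after centring on hybridization controls and 2 of 7 with the block. For all 7, both Snf1-I132G arrays lay below both Snf1 arrays, as they did for 45.4% of all tested genes. The median of the 7 was -0.41 log2 units, beside -0.16 over all tested genes.

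Of the genes for maturation of cytochromes c and c1, CYT2 fell by 0.85 ± 0.16 log2 units, except that it did not pass without either Snf1 array. CYC3, for the heme lyase of cytochrome c, had 1090 and 2402 in Snf1-I132G and 3188 and 3534 in Snf1, a wide gap between the same arrays as for CYC1, and its log2 difference of -1.04 ± 0.37 passed with the array pair as a block but not without it (limma, adjusted p = 0.0029 with the block, 0.089 without). CYC2 was at -0.14 ± 0.18. Among the accessory factors STF1 and STF2, for proteins that stabilise the complex of ATP synthase with its inhibitor, fell by 1.79 ± 0.20 and 1.10 ± 0.18, though only 1 of these passed without replicate 1 of Snf1. The complex IV accessory genes RCF1 and RCF2 were at -0.52 ± 0.25 and 0.32 ± 0.18 and did not pass.

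**Figure D5:**
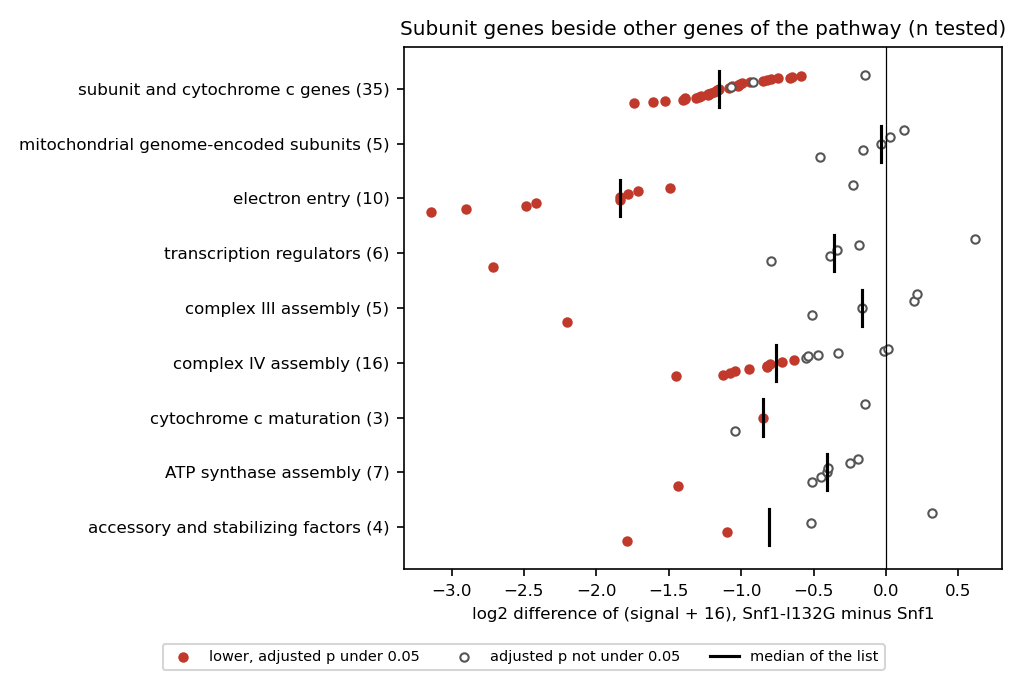
Log2 difference of (signal + 16), Snf1-I132G minus Snf1, of the 35 subunit and cytochrome c genes and of the other genes of the pathway by list, with the number tested. Filled points fell at an adjusted p under 0.05 and open points did not pass, and black bars are list medians, from -1.84 for electron entry to -0.04 for subunits encoded in the mitochondrial genome. HAP1 is drawn at 0.61, from its brightest probe set, which related transcripts can match.

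Position on the chromosome was a feature that the choice of genes did not use. No 2 of the 35 genes are direct neighbours in the RefSeq gene table. Of their 70 neighbouring protein-coding genes 58 were tested, and 12 of these fell, 20.7%, beside 19.9% of all tested genes, with a median log2 difference of -0.18. The neighbours that rose were LYS20 beside INH1, UTR2 beside CYC7, ANB1 beside CYC1, GSP1 beside ATP14 and RPL21B beside ATP4, named after their values were seen. ANB1, a hypoxic form of translation factor eIF5A, had 3381 and 3151 in Snf1-I132G and 755 and 699 in Snf1, and so was higher by 2.14 ± 0.15 log2 units (limma, adjusted p = 0.0018). LYS20 was higher by 2.18 ± 0.17, UTR2 by 1.37 ± 0.25, RPL21B by 1.06 ± 0.19 and GSP1 by 0.89 ± 0.16. The hypoxic forms among the 35 genes did not rise, with CYC7 at -1.17 ± 0.17 and COX5B at -0.14 ± 0.19.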

How the data were processed

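Total RNA was labelled with biotin and hybridized to 4 Affymetrix arrays, 2 for each group. The authors deposited linear signal intensities, for which the submitters' processing notes name MAS5. Its version and the genome build are not given in the sources used here. Gene names came from the platform's annotation table, which gives exactly 1 gene for 6504 of 9275 non-control probe sets, and all 35 symbols matched the RefSeq table of assembly R64, used for names and neighbours only. Signals were taken as log2(value + 16), a scale that understates the change of dim genes. Probe sets whose mean on that scale reached the 25th percentile were kept (6956), and control probe sets were left out. Groups were compared over all of these with limma 3.58.1 in R 4.3.3, using lmFit and a trended eBayes, with Benjamini-Hochberg adjustment at 0.05, with 2 residual and 3.63 prior degrees of freedom. A gene was taken at its brightest tested probe set. The number of arrays limits the precision.

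The members and lists were chosen with earlier results of these data known. All 35 members could be named. Of the other lists the 2 genes with the smallest p were named, or all genes where 7 or fewer were tested. Also named are all regulators and SNF1, and exceptions were named after their values were seen. Arrays of the same number were treated as pairs because the sample descriptions share a string by number, a reading that is not certain. Deviations from group means correlated within pairs at r = 0.51 across probe sets. Single isoform ratios were tested with the exact permutation test of scipy 1.17.1. The alternatives were other scalings, pseudocounts, filters and eBayes settings, the replicate block, left-out arrays and the median over probe sets of a gene. The fit was also run on simulated data with independent noise on each array, which leaves the correlation within pairs unchecked.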

Additional observations from a re-analysis of the deposited data

How the results depend on the processing

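Among the 35 genes only COX5B changed direction, to 0.0019 after quantile normalization, 0.042 after median centring and, with an array left out, between -0.34 and 0.049, the higher one without replicate 1 of Snf1. Over all probe sets 1921 were called, 3338 with the replicate block, which held all 1921, and 776 to 1733 with an array left out. With the block 34 of the 35 genes and 2 of 2 cytochrome c genes fell, ATP5 and CYC1 being added, beside 31.8% of all tested genes, and it changed no other call among the 35. Median centring left 26 genes, with 5 in complex IV, and took out ATP15, ATP18, COX12, COX7, COX9 and QCR8. Without a filter ATP15 and QCR8 were lost, and without the trend ATP15. With an array left out the falls numbered 19 to 29 of 35, 6 to 9 in complex III, 3 to 6 in complex IV, 0 to 2 for cytochrome c and 9 to 13 in ATP synthase, and leaving one out leaves 1 array in a group, assumed to vary like the other group. Leaving out replicate 1 of Snf1 lost 12 genes and gained 1, and leaving out its replicate 2 lost 13. Taking the median over probe sets lost QCR8. The difference of COX5A and COX5B was -1.35 after quantile normalization and -1.34 to -0.997 with an array left out. That of CYC1 and CYC7 was -0.51 to 0.71 with an array left out. The cause was not tested, beyond fewer arrays where one was left out. With MAS5 detection calls not used here, no limit of detection was set for dim genes.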
